A study of Mus musculus with 10 samples.

Results

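The insulin-like growth factor (IGF) family measured here comprised 10 genes: the ligands Igf1 and Igf2, the receptors Igf1r and Igf2r, and the binding proteins Igfbp2 to Igfbp7. They were taken by gene symbol, as all probes whose platform annotation carries one of these names. This gave 24 of the 45281 probes on the array, of which 19 were detected in enough tumors to be tested, and all 10 genes stood among the 11984 genes tested. RNA came from 10 melanomas excised from mouse skin, 5 labelled pigmented and 5 labelled MPNST-like (amelanotic), after the malignant peripheral nerve sheath tumors that the latter resemble. Every mouse, in both groups, was of strain C57BL6 and genotype BrafV600E-CDK4R24C, which joins an inducible oncogenic Braf allele to a Cdk4 allele that resists the p16 family of inhibitors. In both groups tamoxifen had been put on the skin on 4 consecutive days to switch on the Braf allele, and the carcinogen DMBA was given once afterwards. No source used here states which promoter drives the recombinase, how old the mice were or whether the tumors came from separate mice, so p-values measure only the spread between these specimens, which may be technical. Each tumor was hybridized to 1 single-colour Illumina MouseWG-6 v2.0 array, on 2 chips that both held both groups (2 against 2 tumors on chip 1, 3 against 3 on chip 2).

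IGF1 and IGF2 are secreted growth factors that activate the tyrosine kinase IGF1R and, through it, the PI3K and MAPK pathways. IGF2R, which is also the cation-independent mannose 6-phosphate receptor, has no kinase activity and carries IGF2 to the lysosome for degradation. The binding proteins hold the ligands outside the cell, where they can prolong, block or localize their action, and proteases that cleave them set the ligands free. In skin, IGF1 is known chiefly as a product of dermal fibroblasts and macrophages that acts on keratinocytes and melanocytes.

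Both ligands and 5 of the 6 binding proteins were higher in the MPNST-like melanomas, whereas neither receptor was. Igfbp5 had the largest difference, 10.8-fold, followed by Igfbp6 (6.03-fold), Igfbp7 (5.53-fold), Igfbp4 (4.98-fold), Igf1 (4.57-fold), Igf2 (3.13-fold) and Igfbp3 (2.54-fold). Igf2r was 1.35-fold lower, a call that several settings ended, and Igf1r and Igfbp2 did not pass. At an adjusted p under 0.05, 7 of 10 members were thus higher (18.6% of all genes tested) and 1 lower (20.2%). The median log2 difference, MPNST-like minus pigmented, was 1.92 over the members and 0.011 over all genes. All 5 MPNST-like tumors lay above all 5 pigmented tumors for Igf1, Igf2, Igfbp4, Igfbp5 and Igfbp7, that is for 5 of 10 members (12.1% of all genes, or 25.9% counting both directions). The size of each difference depended on how the arrays were scaled. The median of all genes moved to 0.27 when arrays were set to a common median and to -0.22 in the authors' own normalized values, against 0.011 here. Median scaling gave 9 members higher (29.1% of all genes) and 0 lower (9.2%), the authors' values 6 higher (10.2%) and 1 lower (31.9%), and cyclic loess 7 higher (19.4%) and 0 lower (17.6%). Within chip 1 alone 3 members were higher (2.13%) and 0 lower (1.13%), within chip 2 alone 4 were higher (13.3%) and 0 lower (14.9%).

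**Figure D1:**
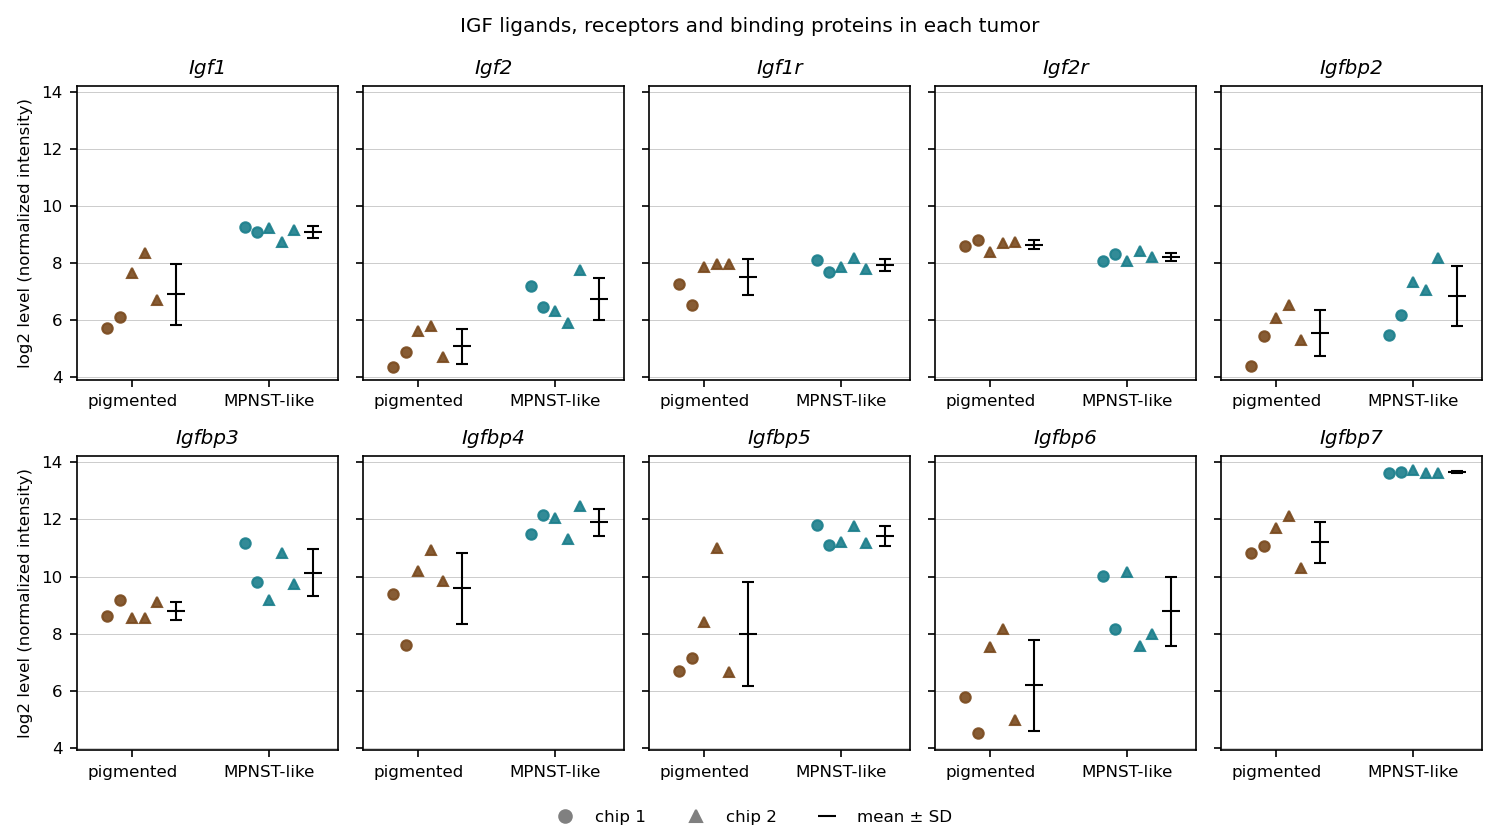
Log2 normalized intensity (y axis) of each family member in the 5 pigmented and 5 MPNST-like tumors, with circles for chip 1, triangles for chip 2 and bars for the mean ± SD of 5 tumors. The groups are fully apart for Igf1, Igf2, Igfbp4, Igfbp5 and Igfbp7 and overlap for the other 5 genes.

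**Figure D2:**
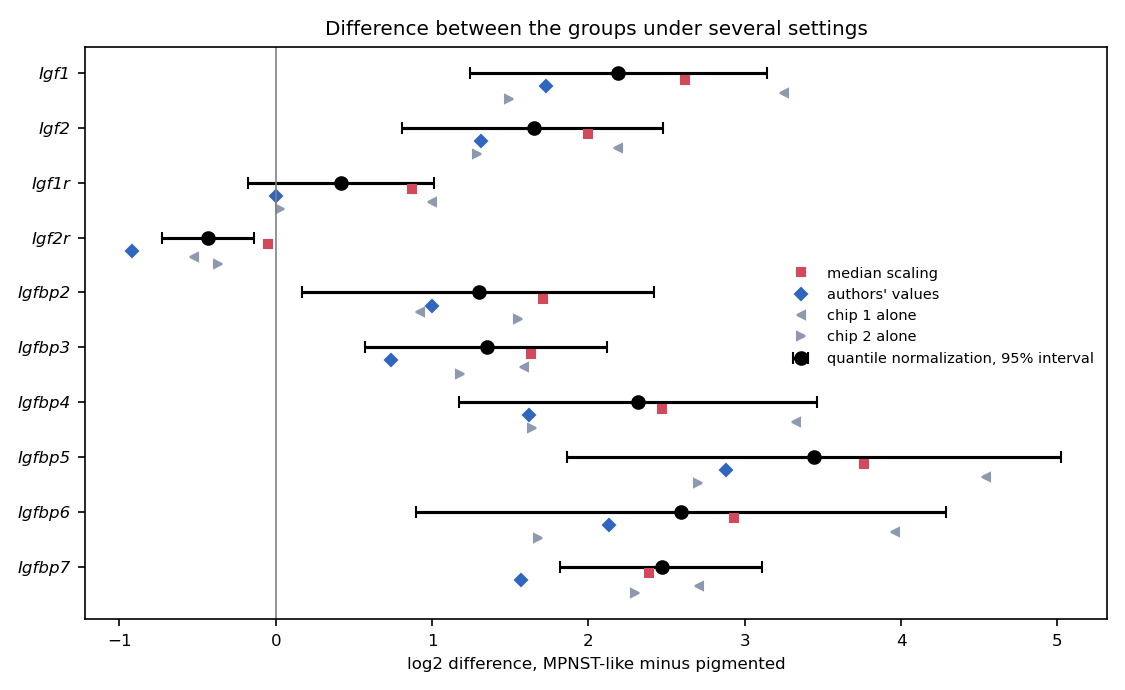
Log2 difference of each member (x axis, MPNST-like minus pigmented) with its 95% interval after quantile normalization, beside the estimate under median scaling, in the authors' values and within each chip. The 7 members that passed stay above 0 in every setting drawn, while Igf2r reaches -0.05 under median scaling and Igf1r 0.00 in the authors' values.

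Promoter sequences are shown for the members that rose with the groups fully apart and 1 start site in the table (Igf1, Igfbp4, Igfbp5 and Igfbp7), and for Igf2r, which went the other way. All 10 members matched RefSeq promoter windows of build GRCm38.p6, and the 250 bases before the start are given. Capitals mark matches, on either strand, to the TATA box TATAAA, the GC box GGGCGG, the E-boxes CATGTG and CACGTG, and the AP-1-like pattern TGANTCA. In the last of these N stands for any base, which is looser than an AP-1 site. These occur in 12.4%, 32.7%, 12.3%, 6.02% and 6.75% of 32851 promoter windows of the same length, in that order. The E-boxes are letters that factors of the MITF and TFE family are known to bind. The windows are chr10:87860861-87861110 on the plus strand for Igf1, chr11:99040994-99041243 on the plus strand for Igfbp4, chr1:72874866-72875115 on the minus strand for Igfbp5, chr5:77408046-77408295 on the minus strand for Igfbp7 and chr17:12769707-12769956 on the minus strand for Igf2r.
Igf1: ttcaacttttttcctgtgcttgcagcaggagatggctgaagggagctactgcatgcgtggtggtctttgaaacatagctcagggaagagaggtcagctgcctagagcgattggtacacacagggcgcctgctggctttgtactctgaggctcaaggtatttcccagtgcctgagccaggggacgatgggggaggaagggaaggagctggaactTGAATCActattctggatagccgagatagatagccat
Igfbp4: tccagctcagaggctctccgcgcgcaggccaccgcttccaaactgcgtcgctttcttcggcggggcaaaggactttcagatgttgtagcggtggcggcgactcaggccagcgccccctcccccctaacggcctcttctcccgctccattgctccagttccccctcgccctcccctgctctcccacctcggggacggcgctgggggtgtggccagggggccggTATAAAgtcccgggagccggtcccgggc
Igfbp5: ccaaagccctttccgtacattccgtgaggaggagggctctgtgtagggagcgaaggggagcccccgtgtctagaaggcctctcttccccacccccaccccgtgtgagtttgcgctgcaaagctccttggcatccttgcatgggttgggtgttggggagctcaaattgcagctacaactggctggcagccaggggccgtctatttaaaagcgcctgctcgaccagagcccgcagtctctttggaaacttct
Igfbp7: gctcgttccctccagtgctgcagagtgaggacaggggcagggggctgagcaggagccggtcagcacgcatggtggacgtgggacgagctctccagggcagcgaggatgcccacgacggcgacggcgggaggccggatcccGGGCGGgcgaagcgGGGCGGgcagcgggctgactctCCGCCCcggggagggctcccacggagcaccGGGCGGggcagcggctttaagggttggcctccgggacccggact
Igf2r: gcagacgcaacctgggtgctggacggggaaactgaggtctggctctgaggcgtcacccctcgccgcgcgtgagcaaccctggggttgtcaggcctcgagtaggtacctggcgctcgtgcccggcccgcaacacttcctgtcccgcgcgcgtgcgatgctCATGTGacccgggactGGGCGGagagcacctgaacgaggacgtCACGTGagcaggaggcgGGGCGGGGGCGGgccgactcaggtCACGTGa
The Igf1 window held 1 match to the AP-1-like pattern, spelled TGAATCA. The Igfbp4 window held 1 TATA box, which began 28 bases before the start. The Igfbp7 window, with 74.0% G and C, held 4 GC boxes. The Igf2r window held 3 GC boxes, 1 CATGTG and 2 CACGTG. Among the windows not shown, 1 of Igfbp2, a gene that stood at 1.30 without passing, also held 1 CACGTG. The Igfbp5 window held no match to these motifs. A match is a description of the letters and shows no binding.

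Array medians ran from 79.4 to 93.9 intensity units, and 17908 to 21581 probes were detected per tumor. On chip 1 the medians were 89.0 and 86.4 in pigmented and 90.6 and 93.9 in MPNST-like tumors. On chip 2 they were 79.4, 82.4 and 81.2 against 87.4, 89.6 and 88.7. Within each chip every pigmented array was thus dimmer than every MPNST-like array, so array brightness went with group. The pigmented tumors carried the marker genes of the labelled tissue, and the MPNST-like tumors held less of them. The mean log2 level of 8 melanocyte markers (Tyr, Tyrp1, Dct, Pmel, Mlana, Mitf, Slc45a2 and Oca2) was 11.68 to 12.03 in pigmented tumors. In MPNST-like tumors it was 4.34 to 9.11, and all 8 markers fell. Tyr, Mitf and Slc45a2 were detected in 1, 1 and 2 of 5 MPNST-like tumors and so passed the detection filter through the pigmented group. Markers of other cell types were measured too, beside 18.6% of all genes that rose and 20.2% that fell. Which cells made this RNA, the tumor cells among them, was not tested. All 9 fibroblast markers rose, with a mean level of 6.78 to 9.90 in pigmented against 10.88 to 11.53 in MPNST-like tumors. All 8 macrophage markers rose as well (6.07 to 8.30 against 8.14 to 9.86), as did 3 of 6 pericyte and smooth muscle markers (5.70 to 7.24 against 7.03 to 8.15). Of 8 endothelial markers 3 rose and 1, Eng, fell (6.03 to 7.22 against 6.87 to 7.96). Keratinocyte markers stood at 6.92 to 10.04 against 7.44 to 10.53. All 7 had a positive difference (median 1.62), and 1 rose by limma, or 4 at an unadjusted p under 0.05. Adipocyte markers stood at 4.35 to 6.74 against 4.34 to 7.06 (0 of 5 changed by limma, also at an unadjusted p under 0.05). Of 7 Schwann cell markers 4 rose and 1, Sox10, fell (6.31 to 7.57 against 7.61 to 8.85). Erbb3, detected in 0 of 5 pigmented tumors, stood at 0.28 without passing (adjusted p = 0.12). Among the markers that rose, Gap43, Fap and Rgs5 were each detected in 2 of 5 pigmented and 5 of 5 MPNST-like tumors. Like Erbb3, they passed the detection filter through the MPNST-like group. Skeletal muscle RNA was high in pigmented 4 (10.42), MPNST-like 2 (11.00) and MPNST-like 5 (11.01), against 4.34 to 7.32 elsewhere, and 0 of its 8 markers changed by limma, also at an unadjusted p under 0.05. Without these 3 tumors 7 members were higher (14.2% of all genes) and 0 lower (14.2%). The part of these cell types in the IGF differences was not tested. In such bulk tissue fewer or more cells of a type and less or more RNA per cell cannot be told apart.

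Both ligands rose. Igf1, the main mediator of growth hormone action, had log2 levels of 5.73, 6.11, 7.64, 8.34 and 6.70 in pigmented 1 to 5 and of 9.25, 9.08, 9.24, 8.74 and 9.15 in MPNST-like 1 to 5. The MPNST-like values were tightly grouped (SD 0.21, n = 5), whereas the pigmented tumors spread over 2.61 log2 units, with pigmented 3 and 4 the closest to the other group. The difference was 2.19 (SE 0.43, 95% interval 1.24 to 3.14, adjusted p = 0.0025, exact permutation p = 0.0079, the lowest value this test can reach with 5 tumors a group). It was 3.25 within chip 1 (adjusted p = 0.020) and 1.49 within chip 2 (0.035). With no background correction it was 1.65, or 3.14-fold (adjusted p = 0.002), and with an offset of 50 it was 1.87, or 3.65-fold (0.0023). The second Igf1 probe gave 1.95 (SE 0.37).

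Igf2, an imprinted growth factor expressed from the paternal allele in most mouse tissues, was measured by 1 probe. Its log2 levels were 4.37, 4.88, 5.62, 5.80 and 4.70 in pigmented 1 to 5 and 7.18, 6.45, 6.32, 5.91 and 7.76 in MPNST-like 1 to 5. All MPNST-like tumors were higher, but MPNST-like 4 exceeded pigmented 4 by only 0.11, and the probe was detected in 4 of 5 pigmented tumors. The difference was 1.65 (SE 0.38, adjusted p = 0.0061, exact permutation p = 0.0079), 2.19 within chip 1 (adjusted p = 0.066) and 1.29 within chip 2 (0.10). Its size depended on the background step, with 0.80 when no correction was made (1.74-fold, adjusted p = 0.014) and 1.04 with an offset of 50 (2.06-fold, 0.011).

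Neither receptor rose. Igf1r, the signalling receptor, had log2 levels of 7.27, 6.52, 7.87, 7.95 and 7.95 in pigmented 1 to 5 and of 8.09, 7.70, 7.86, 8.19 and 7.80 in MPNST-like 1 to 5. The groups overlapped, and the lowest values were those of pigmented 1 and 2, the pigmented tumors of chip 1. The difference of 0.42 (SE 0.27, 95% interval -0.18 to 1.01, adjusted p = 0.24) was 1.0 within chip 1 and 0.03 within chip 2. A second Igf1r probe, also detected in all 10 tumors, pointed the other way at -0.57 (SE 0.29, adjusted p = 0.15). Another probe, detected in 3 tumors, stood at -0.01, and the remaining one was detected in 0 of 10. After median scaling the brightest probe reached 0.87 (adjusted p = 0.029), and in the authors' values it stood at 0.00.

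Igf2r, which removes IGF2 and sorts lysosomal enzymes, had log2 levels of 8.61, 8.80, 8.39, 8.69 and 8.73 in pigmented 1 to 5 and of 8.06, 8.30, 8.07, 8.42 and 8.20 in MPNST-like 1 to 5. Only MPNST-like 4 and pigmented 3 crossed, by 0.03, and the SD was 0.16 in pigmented and 0.15 in MPNST-like tumors. The gene fell by 0.43 on the log2 scale (SE 0.13, adjusted p = 0.026, exact permutation p = 0.016), and its second probe gave -0.51 (SE 0.17, adjusted p = 0.041). The call ended after median scaling (-0.05, adjusted p = 0.84) and cyclic loess (-0.33, 0.086). It also ended without MPNST-like 1 (0.052), MPNST-like 3 (0.063), MPNST-like 5 (0.054) or pigmented 5 (0.056), without the 3 tumors with muscle RNA (-0.45, 0.12), and within chip 1 (-0.52, 0.40) and chip 2 (-0.37, 0.18). In the authors' values Igf2r stood at -0.92 (adjusted p = 0.0011).

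Igfbp5, a binding protein that attaches to extracellular matrix, showed the widest separation of means. Its log2 levels were 6.69, 7.15, 8.39, 11.01 and 6.66 in pigmented 1 to 5 and 11.81, 11.11, 11.20, 11.78 and 11.19 in MPNST-like 1 to 5. Pigmented 4 came within 0.10 of the lowest MPNST-like tumor, and the other 4 pigmented tumors lay far below. The difference was 3.44 (SE 0.72, adjusted p = 0.0035, exact permutation p = 0.0079), 4.54 within chip 1 (adjusted p = 0.018) and 2.70 within chip 2 (0.079). Without pigmented 4 it was 4.20, or 18.3-fold (adjusted p = 4.2e-05), and without the 3 tumors with skeletal muscle RNA it was 4.38, or 20.8-fold (0.00036). The other 2 probes gave 3.51 and 3.14, and on the latter the groups overlapped, with pigmented 4 (9.67) above MPNST-like 2, 3 and 5 (9.48, 9.48 and 9.56).

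Igfbp4, which blocks IGF action until it is cleaved, had log2 levels of 9.38, 7.60, 10.19, 10.92 and 9.83 in pigmented 1 to 5 and of 11.49, 12.16, 12.04, 11.33 and 12.49 in MPNST-like 1 to 5. The groups were apart by 0.40, and pigmented 2 was the lowest tumor. The difference was 2.32 (SE 0.52, adjusted p = 0.0052, exact permutation p = 0.0079), 3.33 within chip 1 (adjusted p = 0.080) and 1.64 within chip 2 (0.022). On the second probe, where the groups overlapped, it was 2.09 (SE 0.57, adjusted p = 0.016). In the authors' values it was 1.62, or 3.06-fold (adjusted p = 0.034).

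Igfbp7, a secreted protein that binds IGFs weakly and is found in vessel walls and stroma, separated the groups by the widest gap of the family, 1.52 log2 units. Its log2 levels were 10.81, 11.07, 11.69, 12.11 and 10.29 in pigmented 1 to 5 and 13.64, 13.67, 13.74, 13.63 and 13.63 in MPNST-like 1 to 5. In unscaled intensity the same probe read 963 to 4153 in the pigmented group against 11173 to 15606 in the other, whereas the SD of 0.046 in the latter was taken after quantile normalization. The difference was 2.47 (SE 0.29, adjusted p = 0.00015, exact permutation p = 0.0079), 2.71 within chip 1 (adjusted p = 0.023) and 2.30 within chip 2 (0.012). The call held under all 25 alternatives, over which the difference ran from 1.57 (the authors' values) to 2.71. The other 4 probes annotated to Igfbp7 were detected in 0 of 10 tumors, so the result rests on 1 probe.

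Igfbp6, which prefers IGF2 over IGF1, had log2 levels of 5.78, 4.50, 7.52, 8.15 and 4.96 in pigmented 1 to 5 and of 10.03, 8.17, 10.15, 7.56 and 7.98 in MPNST-like 1 to 5. The groups overlapped, since pigmented 4 lay above MPNST-like 4 and 5. The difference was 2.59 (SE 0.77, adjusted p = 0.021, exact permutation p = 0.032), 3.96 within chip 1 (adjusted p = 0.077) and 1.68 within chip 2 (0.23). The call ended without pigmented 5 (2.29, adjusted p = 0.056) or MPNST-like 3 (2.25, 0.053). Without the 3 tumors with muscle RNA the difference was 3.55, or 11.7-fold (0.015), and with no background correction it was 1.74, or 3.34-fold (0.032).

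Igfbp3, the main carrier of IGFs in blood, rose with the wider spread in the MPNST-like group, as did Igf2. Its log2 levels were 8.61, 9.18, 8.56, 8.53 and 9.09 in pigmented 1 to 5 and 11.17, 9.80, 9.16, 10.82 and 9.75 in MPNST-like 1 to 5. MPNST-like 1 and 4 stood highest, MPNST-like 3 lay within the pigmented range, and pigmented 4 was the lowest tumor of all. The difference was 1.35 (SE 0.35, adjusted p = 0.012, exact permutation p = 0.016), 1.59 within chip 1 (adjusted p = 0.20) and 1.18 within chip 2 (0.075). Its other probe gave 1.16 (SE 0.40, adjusted p = 0.043). In the authors' values the difference was 0.74 and did not pass (adjusted p = 0.10).

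Igfbp2, a binding protein with an integrin-binding sequence, had log2 levels of 4.40, 5.43, 6.07, 6.52 and 5.31 in pigmented 1 to 5 and of 5.49, 6.18, 7.32, 7.06 and 8.17 in MPNST-like 1 to 5. The 3 MPNST-like tumors of chip 2 lay above all pigmented tumors, and the 2 of chip 1 did not. The difference of 1.30 (SE 0.51, 95% interval 0.17 to 2.42, adjusted p = 0.066, exact permutation p = 0.063) was 0.92 within chip 1 (adjusted p = 0.37) and 1.55 within chip 2 (0.029). It passed with chip as a block (1.30, adjusted p = 0.012), after median scaling (1.71, 0.019), with array weights (1.57, 0.028), without MPNST-like 1 (1.64, 0.019) and without pigmented 4 (1.54, 0.038). With chip as a block, 8 members were higher (18.7% of all genes) and 1 lower (20% of all genes).

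**Figure D3:**
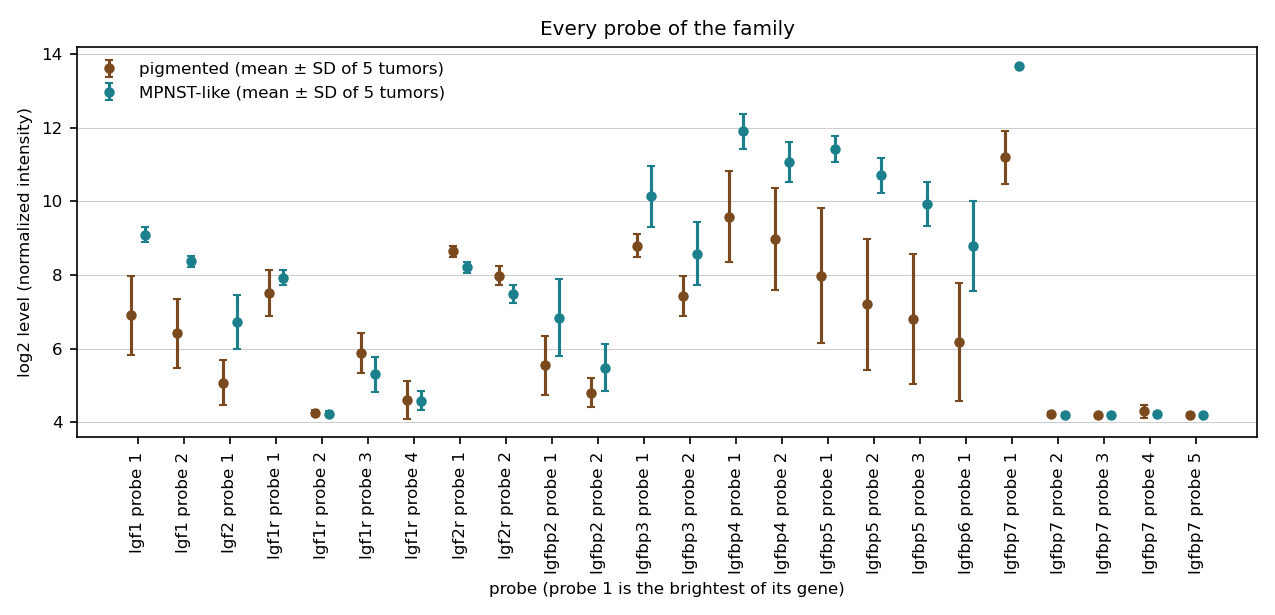
Log2 normalized intensity (y axis) of each of the 24 probes of the family (x axis), as mean ± SD of 5 pigmented and 5 MPNST-like tumors. Probes of 1 gene move alike for Igf1, Igf2r, Igfbp3, Igfbp4 and Igfbp5, the 2 Igf1r probes detected in all tumors point opposite ways, and 4 of 5 Igfbp7 probes lie at the background.

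Over all kept probes, fitted together, 12 of the 19 family probes were higher (15.4% of all probes) and 2 lower (18.7%). The 12 were both probes of Igf1, Igfbp3 and Igfbp4, all 3 of Igfbp5, and those of Igf2, Igfbp6 and Igfbp7. The 2 lower probes were those of Igf2r. Both Igfbp2 probes were positive without passing, at 1.30 (adjusted p = 0.069) and 0.67 (0.11).

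The tumors within a group were not alike. Pigmented 4 had the highest level of its group for 8 of 10 members, where this held for 19.5% of all genes. The exceptions were Igf2r and Igfbp3, and for Igf1r it stood level with pigmented 5 (both 7.95). Pigmented 4 was also the highest pigmented tumor for 9 of 9 fibroblast, 8 of 8 macrophage, 8 of 8 skeletal muscle and 7 of 7 keratinocyte markers. The same held for 6 of 8 endothelial, 4 of 6 pericyte and smooth muscle and 3 of 5 adipocyte markers. It held for 1 of 7 Schwann cell and 0 of 8 melanocyte markers. The part of these cells was not tested. The SD was larger among pigmented than among MPNST-like tumors for 7 of 10 members (58.5% of all genes), with Igf2, Igfbp2 and Igfbp3 the other way. Among MPNST-like tumors, MPNST-like 5 had the highest Igf2, Igfbp2 and Igfbp4, and MPNST-like 1 the highest Igf1, Igfbp3 and Igfbp5.

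**Figure D4:**
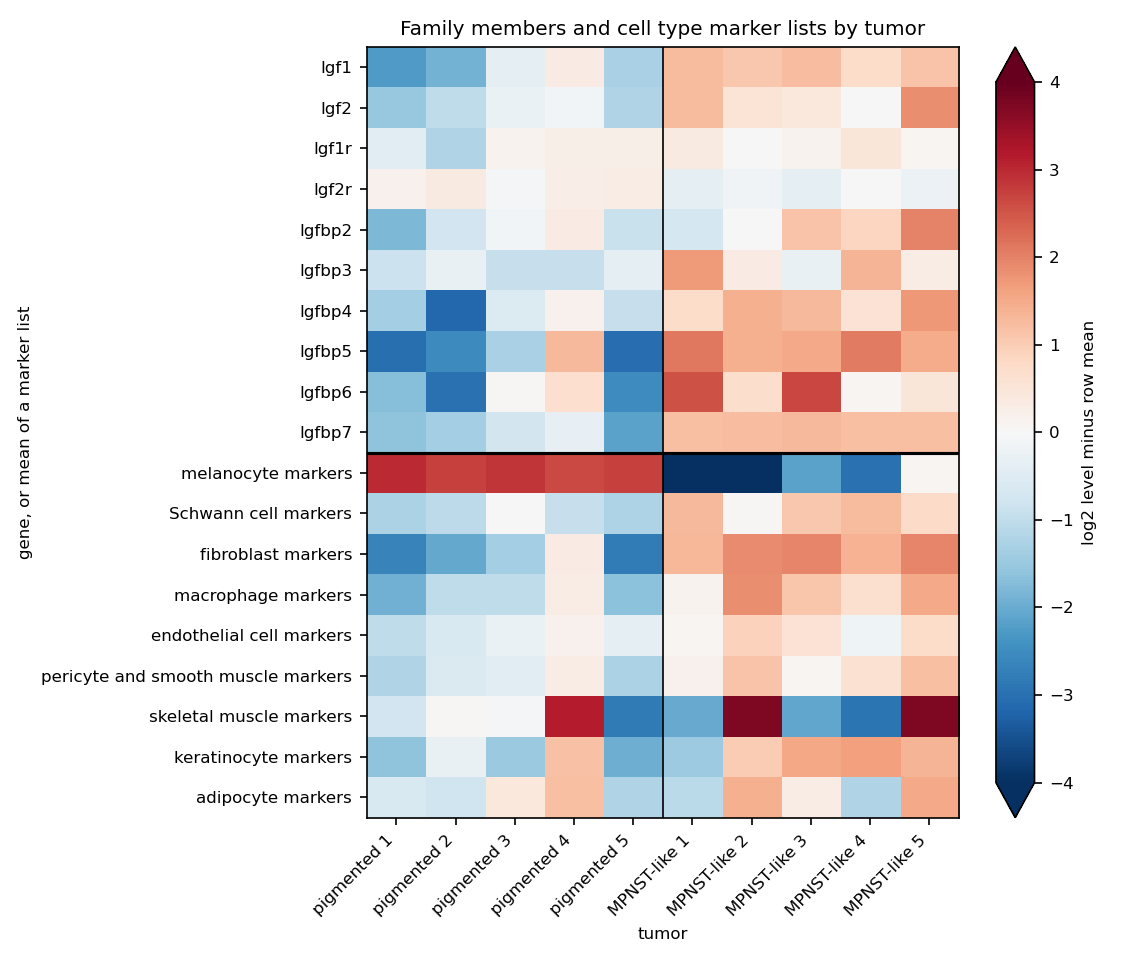
Log2 level minus the row's mean over 10 tumors (colour), for the family members above the line and for the mean of each cell type marker list below it, with tumors in columns. Pigmented 4 is the highest pigmented tumor for 8 of 10 members and for all marker lists except the melanocyte and Schwann cell lists. Its lead is wide for Igfbp5 (11.01 against 8.39 in pigmented 3), while for Igf1r it stands level with pigmented 5 (both 7.95). Its melanocyte list (11.68) lies just below those of the other pigmented tumors (11.77 to 12.03).

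Genes whose profiles over the 10 tumors lay closest to a member were named by the root mean square (RMS) difference of log2 values, each gene taken around its own mean. They are a description of likeness over 10 arrays. For Igfbp5 they were the collagen gene Col1a2 (RMS 0.51) and Nnmt (0.52), which encodes nicotinamide N-methyltransferase. For Igfbp7 they were Antxr1 (0.20), a collagen-binding receptor, and Gpr153 (0.25). For Igf1 they were the basement membrane collagen gene Col4a2 (0.32) and Prr33 (0.33). For Igfbp4 they were Scarf2 (0.31) and the anion transporter gene Slco2b1 (0.40). For Igfbp6 they were the integrin gene Itgb4 (0.61) and Pcolce (0.63), an enhancer of procollagen processing. For Igfbp3 they were the channel gene Panx1 (0.26) and the focal adhesion gene Zyx (0.27), and for Igf2 the sulfotransferase gene Chst1 (0.43) and Dtx4 (0.44). For Igf2r, whose own SD over the tumors was 0.27, they were Coro7 (0.10) and Prkab1 (0.10).

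Of 11 genes listed for ligand availability, most of them proteases or inhibitors that act on the binding proteins, 8 were tested. Of these, 3 rose (18.6% of all genes), 1 fell (20.2%) and 4 did not pass, with a median log2 difference of 0.27, against 0.011 over all genes. Pappa, whose product PAPP-A cleaves IGFBP4 and IGFBP5, had log2 levels of 4.39 to 4.97 in pigmented tumors (median 4.65) and of 6.78 to 8.76 in MPNST-like ones (median 7.20). The difference was 7.57-fold (2.92, SE 0.33, adjusted p = 0.00011), with the probe detected in 3 of 5 pigmented tumors. It was 1.51, or 2.85-fold, with no background correction and 1.93 with an offset of 50. Htra1, a secreted serine protease that cleaves IGFBP5 and matrix proteins, had levels of 5.38 to 8.13 in the pigmented group, against 9.33 to 11.79 in the other, and was 14.7-fold higher (3.88, SE 0.55, adjusted p = 0.00037). Adam9, a membrane metalloprotease, rose by 1.35 (SE 0.26). Stc1, whose human product stanniocalcin 1 inhibits PAPP-A, had levels of 7.80 to 10.65 in the pigmented group, against 5.88 to 7.88 in the other. It fell by 2.27 (SE 0.55, adjusted p = 0.0081), with MPNST-like 2 just above pigmented 4. Without the 3 tumors with muscle RNA its difference was -3.24. Stc2, the second stanniocalcin, stood at 0.40 (adjusted p = 0.22), and Igfals, the liver-made partner of IGFBP3 in blood, at 0.14 (0.79).

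Calls among the signalling genes inside the cell went both ways. Of all genes tested, 18.6% rose and 20.2% fell. These shares were 29.1% and 9.2% after median scaling, and 10.2% and 31.9% in the authors' values. Of 7 tested genes of the receptor family and its adaptors, 1 rose and 0 fell by limma (median 0.08, and 1 fell at an unadjusted p under 0.05). In the authors' values 1 rose and 2 fell (median -0.22). The gene that rose was Grb14, an adaptor that restrains insulin receptor signalling. It was detected in 1 of 5 pigmented and in 5 of 5 MPNST-like tumors and so passed the filter through the group where it is high. Its difference of 1.93 (SE 0.25, adjusted p = 0.00021) was 0.82 with no background correction and 1.07 with an offset of 50. Insr, the insulin receptor, stood at 0.08 (0.82) and Irs2, a docking protein of both receptors, at -1.37 (0.078). Of 18 tested genes of the PI3K, Akt and mTOR arm, 2 rose and 10 fell (median -0.68), against 3 and 4 after median scaling (median -0.21). Of 3 tested genes for regulatory subunits of PI3K, Pik3r1 rose by 1.60 (SE 0.23, adjusted p = 0.00042), while Pik3r3 fell by 2.54 (SE 0.36, 0.00038) and Pik3r2 by 0.68 (SE 0.22, 0.029). The catalytic subunit gene Pik3cb fell by 1.75 (SE 0.25, 0.00038), and Pdpk1, whose kinase activates Akt, by 1.02 (SE 0.15, 0.00038). Pik3ca, the other catalytic subunit gene tested, pointed the other way at 0.55 without passing (SE 0.20, adjusted p = 0.05 when rounded). Akt1 and Akt2 were not tested. Of 6 tested growth hormone genes, 4 rose and 1 fell (median 0.94), whereas in the authors' values 1 rose and 1 fell (median 0.52). The receptor gene Ghr rose by 1.25 (SE 0.35), and the feedback inhibitor genes Socs2 and Socs3 by 1.33 (SE 0.33) and 1.74 (SE 0.20). Stat5a, a transcription factor that growth hormone activates, fell by 1.77 (SE 0.21, adjusted p = 0.00014). With no background correction its difference was -1.08.

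Of 5 tested genes for Igf2 RNA and imprinting, 2 rose (18.6% of all genes) and 0 fell (20.2%) by limma (median 1.19, and 0 fell at an unadjusted p under 0.05). Mest, an imprinted gene, had levels of 5.91 to 6.80 in the pigmented group, against 8.80 to 10.65 in the other (3.34, SE 0.31, adjusted p = 4e-05). Peg3, also imprinted, overlapped between the groups (1.72, SE 0.47, adjusted p = 0.014), and its probe was above background in 2 of 5 pigmented and 5 of 5 MPNST-like tumors, so that it too passed the filter through the latter. The difference was 0.79 with no background correction and 1.05 with an offset of 50. The sorting machinery around IGF2R fell in 5 of 10 tested genes (20.2% of all genes) and rose in 0 (18.6%) by limma (median -0.48, and 1 rose at an unadjusted p under 0.05). After median scaling 3 fell (9.2% of all genes, median -0.16), and in the authors' values 7 fell (31.9%, median -0.77). Sort1, the gene of the sorting receptor sortilin, fell by 2.09 (SE 0.28, adjusted p = 0.00028). The adaptor genes Gga2, Gga1 and Gga3, whose products pick up mannose 6-phosphate receptors in the Golgi, fell by 2.09 (SE 0.26), 0.97 (SE 0.15) and 0.69 (SE 0.22). The Gga3 call ended in 10 of 25 alternatives. M6pr, the cation-dependent mannose 6-phosphate receptor, stood at 0.52 (adjusted p = 0.11). Over the 6 lists, 54 genes were tested, 12 rose (18.6% of all genes) and 17 fell (20.2%). After median scaling 15 rose (29.1%) and 9 fell (9.2%), and in the authors' values 8 rose (10.2%) and 21 fell (31.9%).

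**Figure D5:**
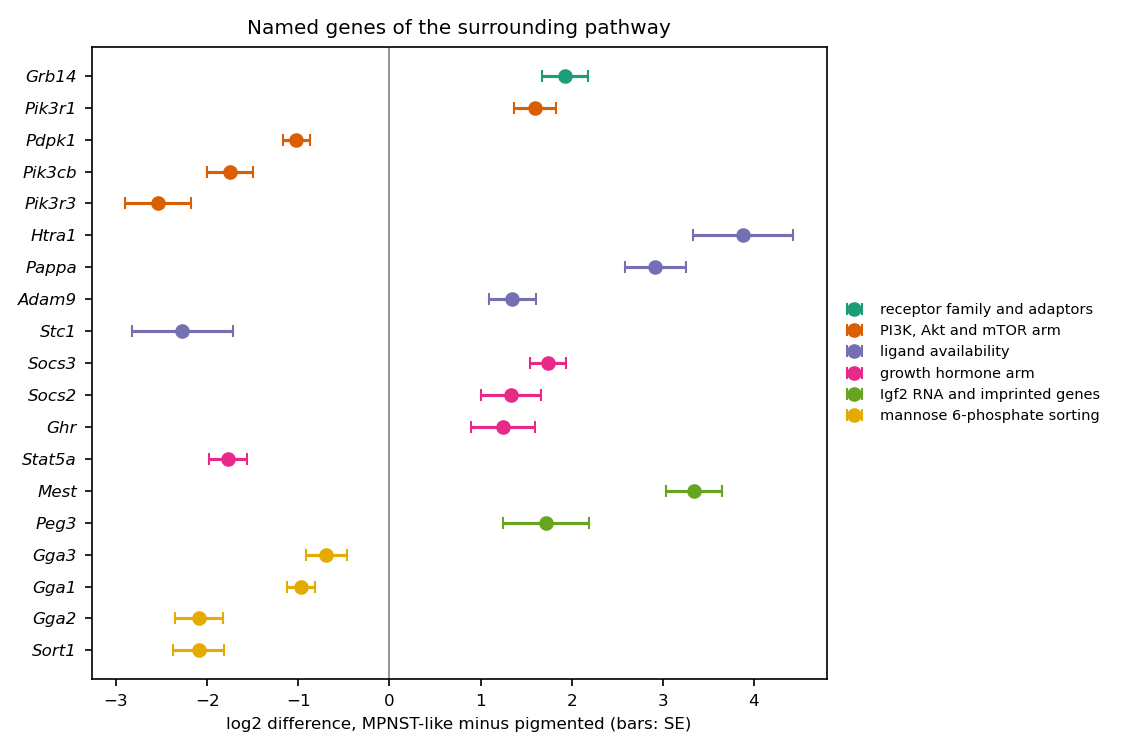
Log2 difference, MPNST-like minus pigmented (x axis, bars show the SE), of the 19 named genes of the pathway, coloured by list. Htra1 (3.88), Mest (3.34) and Pappa (2.92) lie farthest to the right and Pik3r3 (-2.54) farthest to the left.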

How the data were processed

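Per the labels' protocols, frozen tumors were lysed in TRI Reagent, their RNA was cleaned on RNeasy columns and 100 ng was amplified into biotinylated cRNA. Per the file headers, the deposited scanner table gives each probe an average intensity and a detection p-value on every array. The scanner software and any background step are not stated in the labels or headers. The authors' normalized log2 values form another deposited table, and 2 to the power of each value was linear in the scanner intensity (R squared 1 for all 10 arrays). Its column medians in pigmented 1 to 5 were 4.79, 4.92, 5.00, 4.86 and 4.96. In MPNST-like 1 to 5 they were 4.79, 4.85, 4.80, 4.80 and 4.82. The scale and direction thus follow the intensities, genes were not centred, and the rule behind each array's slope (0.578 to 2.62) remains unknown, so these values served as an alternative.

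Intensities were background-corrected and quantile-normalized with neqc (offset 16) in limma 3.58.1, R 4.3.3. Probes detected at p under 0.05 on at least 3 arrays were kept (22480). Of all probes, 34885 had 1 symbol, 18 several and 10378 none, 34807 matched a RefSeq gene by Entrez identifier and 0 symbols changed. The brightest kept probe stood for a gene. Groups were compared with lmFit and eBayes over 11984 genes, with Benjamini-Hochberg adjustment, beside an exact two-sided permutation test over 252 assignments for each member. The fit was tested on simulated data. Arrays carry no count, so their number limits the precision. Figures used matplotlib 3.10.9 in Python 3.11.15.

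The members and the gene lists were chosen with earlier results of these data known. Named are all members, up to 4 genes per pathway list that passed with the largest differences, and the 2 genes closest in profile to each member that passed. Other list genes named (Stc2, Igfals, Insr, Irs2, M6pr, Pik3r2, Pik3ca) were chosen after their values were seen. Alternatives were other background corrections, scalings, filters and probe choices, the authors' values, chip as a block or alone, other variance models, array weights and leaving out each tumor. Leaving out the 3 tumors with skeletal muscle RNA was added after seeing the data.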

Additional observations from a re-analysis of the deposited data

Results flagged for a closer look

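Over the 10 family members and 19 named pathway genes, 58 groups of 5 tumors were searched for a single tumor far from the other 4, a search in which chance marks about 1 in 20 groups, and 4 were marked. None of the 10 members was among them. Stat5a stood at 7.03 in pigmented 2, against 7.69 to 7.87 in the other pigmented tumors. Sort1 stood at 11.99 in pigmented 2, against 12.81 to 13.10. Adam9 stood at 8.49 in pigmented 2, against 7.15 to 7.54. Gga3 stood at 5.97 in MPNST-like 5, against 5.23 to 5.43.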

How the results depend on the processing

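Of 250 member differences under 25 alternatives, 222 kept their direction and their side of the threshold, 20 lost the call, 7 gained one and 1 turned sign: Igf1r, at -0.05 (adjusted p = 0.88) when its probes were averaged. Of 475 differences of named pathway genes, 447 were unchanged in this sense, 28 lost the call and 0 turned sign. These genes were named because they passed with the largest differences in the same data, which favoured an unchanged call. For the members, other filters, chip as a block and trended robust variances left the difference as it was. Under these settings only the adjusted p could change. The number of members higher was 7, with 3 within chip 1 and 4 within chip 2, and the number lower was 1, with 0 after median scaling, after cyclic loess, within chip 1, within chip 2 and without the 3 tumors with muscle RNA. Leaving out 1 tumor gave 6 to 8 members higher (15.4% to 19.8% of all genes) and 0 to 1 lower (16.8% to 21.9%). The 12 pathway genes higher became 4 within chip 1 (2.13% of all genes). The 17 lower became 9 after median scaling (9.2%) and 0 within chip 1 (1.13%), where fewer tumors entered the fit. With 1 tumor left out, 10 to 14 were higher (15.4% to 19.8%) and 13 to 18 lower (16.8% to 21.9%). The 12 member probes higher became 15 after median scaling (24.8% of all probes) and 9 in the authors' values (8.91%). They were 6 within chip 1 (1.73%), 6 within chip 2 (11.1%) and 11 to 12 with 1 tumor left out (12.5% to 16.2%). The 2 lower became 0 after median scaling (8.38% of all probes), cyclic loess (16.5%), within chip 1 (1.17%) and without the muscle tumors (13.1%). They became 1 within chip 2 (13.8%), 1 with trended robust variances (18.2%) and 3 with array weights (21.7%). With 1 tumor left out they were 0 to 2 (15.5% to 19.9%). The exact permutation test put 8 members under 0.05, 7 to 9 with 1 tumor left out, and 3 without the 3 muscle tumors, where 4 against 3 tumors remain. It was run on the members only, so no share of all genes can be set beside these counts. Its lowest p is reached wherever the groups do not overlap, as they did not for 25.9% of all genes. Within a chip that test cannot reach 0.05, and filters leave each member's value as it is, so neither was counted. Over all genes 2228 were higher and 2418 lower, against 3488 and 1103 with median scaling, 1220 and 3817 by the authors' values, 255 and 135 within chip 1, and 1593 and 1783 within chip 2. No paired analysis was possible because the labels give no replicate numbers. Igf2, Igfbp2, Igfbp6, Pappa, Grb14 and Peg3 lay near background in some pigmented tumors, which limits the size of their differences.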

Other observations

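Neighbouring genes of the family did not all share a call. Igfbp2 and Igfbp5 lie next to each other on chromosome 1, with 0 annotated genes between them. Igfbp5 rose by 3.44 on the log2 scale, and Igfbp2 stood at 1.30 without passing (adjusted p = 0.066). This contrast belongs to the main setting, since Igfbp2 passed in 6 of 25 alternatives. Within chip 2 Igfbp2 passed (0.029) and Igfbp5 did not (0.079). The difference between these neighbours was not tested. Igfbp3 lies next to Igfbp1 on chromosome 11. Igfbp3 rose by 1.35, while Igfbp1 was detected in too few tumors to be tested.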
